A study of Mus musculus with 6 samples.

Results

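The oocyte homeobox (Obox) genes Obox1, Obox2, Obox3, Obox5, Obox6 and Obox7 and the oogenesin genes Oog1, Oog2, Oog3 and Oog4 were followed in mouse germinal vesicle (GV) oocytes with and without Rpa1. These 10 genes were taken by their symbols from a table of 49315 genes. RNA came from Rpa1 OcKO females, in which Rpa1 is deleted in oocytes only, and from females labelled Control, with 3 libraries from 3 mice in each group. All mice were 4 to 5 weeks old and had received PMSG, a gonadotropin that drives follicle growth, and each library pooled about 20 fully grown GV oocytes stripped of cumulus cells. The labels name neither the Cre driver of the OcKO nor the alleles carried by the Control mice.

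Obox genes encode homeodomain proteins that bind DNA. In the mouse, Obox1, Obox2, Obox5 and Obox7 are known as maternal genes, whose RNA is stored in the growing oocyte, whereas Obox3 is known for transcription after fertilization, and the OBOX proteins are known for their part in starting transcription from the embryonic genome. Oogenesins belong to the PRAME family of leucine-rich repeat proteins and are known as genes of the oocyte and early embryo. Both families are multicopy, so members share long stretches of sequence. Fully grown GV oocytes are largely silent in transcription and hold RNA made during growth.

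In these oocytes 8 of the 10 genes were abundant, and the other 2, Obox3 and Obox6, had few or no counts. Of the 8, none was called as changed in OcKO oocytes (edgeR quasi-likelihood test, Benjamini-Hochberg adjusted p under 0.05 over all 16060 tested genes), where the share called over all tested genes was 0.143% (0.137% higher and 0.00623% lower in OcKO). None had an unadjusted p under 0.05, against 11.1% of all tested genes (5.93% higher and 5.21% lower). The lowest bound of the 8 95% intervals was a 0.525-fold level in OcKO relative to Control, for Obox1, and the highest was 2.01-fold, for Oog3. Each gene has its own interval, and that of Oog4, for example, ran from 0.544-fold to 1.12-fold. Differences inside a gene's own interval could not be resolved with 3 libraries a group. The clearest feature of the members was a difference among the OcKO libraries themselves: replicate 2 held the highest level of all 8 genes within its group.

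The Obox genes lie in 1 cluster on chromosome 7 (GRCm38). Obox7 is at chr7:14659496-14665996 on the plus strand and stands apart from the others. Obox2 at chr7:15388721-15398545 and Obox1 at chr7:15388948-15556866, both on the plus strand, share 59 exonic bases at chr7:15388948-15389006. Obox3 lies at chr7:15479825-15639902 on the minus strand, Obox5 at chr7:15750131-15759800 on the plus strand and Obox6 at chr7:15833241-15839678 on the minus strand. Among the oogenesins, Oog1 is at chr12:87602688-87608845 on the plus strand. The other oogenesins lie on chromosome 4, with Oog4 at chr4:143437164-143450324 and Oog3 at chr4:144157557-144162663 on the minus strand and Oog2 at chr4:144190719-144196934 on the plus strand.

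The sequence upstream of the members shows how far each family is a set of copies. RefSeq promoter windows (GRCm38.p6, 250 bases before to 50 after each start) were found for 9 of the 10 genes, all but Obox6. Within the Obox family the aligned windows of Obox1 and Obox2 were 100% identical over 203 bases, those of Obox5 and Obox7 were 97.1% identical, and those of Obox1 and Obox5 were 95.5% identical. Obox3, the member with few counts, was the most distant, at 62.6% to 75.5% identity to the other 4 windows. The oogenesin windows were 75.2% to 83.6% identical to each other. The longest run of letters common to an Obox and an oogenesin window on the same strand was GCAAGTGGGTGGAG, of 14 letters. It was found after the windows had been read, in Obox1, Obox2, Obox5, Obox7 and Oog3, and on either strand it occurred in exactly 5 of the 32851 windows of the table (0.0152%). The stretches that hold it, or its closest match, are shown because they are the part that both families have in common; capitals mark this run or its closest match and the first TATATAA (in Oog4, TATATA) after it.
Obox1: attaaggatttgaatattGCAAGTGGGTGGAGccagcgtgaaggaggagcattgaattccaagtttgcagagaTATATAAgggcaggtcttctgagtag
Obox2: tgaatattGCAAGTGGGTGGAGccagcgtg
Obox3: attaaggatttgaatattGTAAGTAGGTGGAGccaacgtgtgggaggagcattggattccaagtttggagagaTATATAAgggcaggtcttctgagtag
Obox5: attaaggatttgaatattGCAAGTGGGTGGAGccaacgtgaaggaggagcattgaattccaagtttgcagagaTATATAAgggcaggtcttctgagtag
Obox7: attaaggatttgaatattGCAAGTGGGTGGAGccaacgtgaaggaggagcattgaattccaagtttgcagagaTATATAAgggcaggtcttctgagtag
Oog1: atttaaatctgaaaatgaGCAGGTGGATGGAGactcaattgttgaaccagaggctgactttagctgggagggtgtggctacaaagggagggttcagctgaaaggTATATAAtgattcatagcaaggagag
Oog2: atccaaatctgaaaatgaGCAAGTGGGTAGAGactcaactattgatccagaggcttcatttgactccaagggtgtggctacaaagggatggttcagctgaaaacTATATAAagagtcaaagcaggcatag
Oog3: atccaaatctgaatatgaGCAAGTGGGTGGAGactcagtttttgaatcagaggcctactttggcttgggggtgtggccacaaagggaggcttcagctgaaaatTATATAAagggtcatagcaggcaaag
Oog4: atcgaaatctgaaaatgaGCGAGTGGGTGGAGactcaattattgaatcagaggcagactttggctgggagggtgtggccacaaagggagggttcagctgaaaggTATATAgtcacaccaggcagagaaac

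The stretches run 5′ to 3′ on the strand of each gene. They are chr7:15547165-15547263 for Obox1, chr7:15388866-15388895 for Obox2, chr7:15639782-15639880 for Obox3, chr7:15750266-15750364 for Obox5 and chr7:14659630-14659728 for Obox7. The oogenesin stretches are chr12:87602553-87602682 for Oog1, chr4:144190581-144190710 for Oog2, chr4:144162657-144162785 for Oog3 and chr4:143450329-143450458 for Oog4. Counting from 1 at the first letter of the shared run, Oog2 differed from it by G11A, Oog4 by A3G, Oog1 by A4G and G9A, and Obox3 by C2T and G7A. With 1 mismatch allowed the run occurred in 34 windows (0.103%), and with 2 mismatches in 259 windows (0.788%). From the first letter of the run to the first of TATATAA there were 55 bases in Obox1, Obox3, Obox5 and Obox7, and 85 or 86 bases in Oog1, Oog2 and Oog3. In Obox2 the run lies after the RefSeq start, 23 bases downstream of it, and no TATATAA was in its window.

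TATATAA, also searched after the windows had been read, was present on either strand in 7 of the 9 member windows and in 3.24% of all windows. Windows of a family are similar copies, so the member counts of this and the next motifs are not of independent windows. The E-box motif CANNTG, the type bound by helix-loop-helix factors such as FIGLA, was present in 8 of 9, all but Obox3, and in 72.3% of all windows. Of the homeobox-type motifs, TAAT was in 8 of 9 member windows and in 58.0% of all, and TAATTG was in those of Oog3 and Oog4 and in 8.0% of all. TAATTA was in no member window and in 5.29% of all, and GGATTA was in that of Obox3 and in 7.06% of all. Both strands were searched for each motif, TAAT is part of TAATTG and TAATTA, and a match here describes letters only.

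The libraries held 42203260, 44575222 and 36280148 counts in OcKO replicates 1 to 3 and 37693672, 41402926 and 36612443 in Control replicates 1 to 3. The genotype was visible in the counts of Rpa1, a subunit of the single-strand DNA binding protein RPA: 7.76, 4.14 and 6.84 CPM (counts scaled to a common library size, with TMM factors) in OcKO, against 155.5, 155.2 and 140.0 CPM in Control. All 12 oocyte markers had counts in every library, with a summed level of 25910 to 31070 CPM in OcKO and 30800 to 49700 CPM in Control. The summed level of 15 granulosa and cumulus markers was 109.6 to 129.1 CPM in OcKO and 80.5 to 110.9 CPM in Control. Of the 15, 2 to 3 had 0 counts in each OcKO library and 4 to 6 in each Control library, so most were detected. Only Ptx3, a gene of the expanding cumulus, had 0 counts in all 6 libraries. The share of mitochondrially encoded RNA was 0.155% to 0.188% in OcKO and 0.067% to 0.0807% in Control, and 19915 to 22393 genes were detected in OcKO against 18330 to 19351 in Control. OcKO replicates 2 and 3 each stood apart from the other libraries. Replicate 2 had the most detected genes and the highest OcKO levels of the members, as given below, and replicate 3 had the highest summed counts of 2-cell stage genes. The part of these differences in the members' values was not tested.

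Obox2 and Oog3 led the 8 abundant members by level per length. The mean level per kb of exon in OcKO, in CPM per kb, was 1146 ± 464.5 for Obox2, 990.2 ± 611.4 for Oog3, 570.6 ± 148.2 for Oog4 and 562.5 ± 255.2 for Obox1 (SD, n = 3). It was 435.2 ± 157.4 for Obox5, 238.9 ± 69.35 for Oog2, 146.8 ± 52.16 for Oog1 and 109.0 ± 31.74 for Obox7 (SD, n = 3). In Control the level per kb was 1290 ± 91.1 CPM for Obox2, 940.6 ± 183.4 for Oog3, 731.7 ± 72.3 for Oog4 and 654.2 ± 70.1 for Obox1 (SD, n = 3). It was 486.6 ± 60.1 for Obox5, 245.3 ± 62.04 for Oog2, 147.8 ± 13.1 for Oog1 and 107.6 ± 20.6 for Obox7 (SD, n = 3). The order was thus the same in both groups. In Control the ranges of neighbours in this order were apart except for Oog4 and Obox1, whereas in OcKO they overlapped except for Obox5 and Oog2. By mean level per kb over all 6 libraries Obox2 ranked 23rd, Oog3 28th, Oog4 47th and Obox1 55th among the 27431 genes with any level, and Obox7, the lowest of the 8, ranked 472nd.

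Obox1, a maternal homeobox gene, had 812, 1628 and 766 CPM in OcKO replicates 1 to 3, against 1186, 1148 and 1395 CPM in Control replicates 1 to 3. OcKO replicates 1 and 3 lay below all Control libraries and replicate 2 above them all, so the groups overlapped. The log2 fold change was -0.22 (SE 0.30, 95% interval -0.93 to 0.49, edgeR quasi-likelihood adjusted p = 0.875). Here, as in any bulk sample, less RNA per oocyte and fewer contributing oocytes cannot be told apart.

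Obox2, whose transcript is nearly that of Obox1, had 1424, 2769 and 1466 CPM in OcKO and 2150, 1961 and 2258 CPM in Control. The libraries fell in the same pattern as for Obox1, with OcKO replicate 2 the highest of the 6 and the other OcKO libraries the lowest. Its log2 fold change was -0.17 (SE 0.28, 95% interval -0.82 to 0.47, edgeR adjusted p = 0.896).

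Obox5, the next maternal copy along the cluster, had 772.5, 1315 and 700.5 CPM in OcKO and 921, 1022 and 1176 CPM in Control. Again OcKO replicate 2 was above and OcKO replicates 1 and 3 were below every Control library. The log2 fold change was -0.16 (SE 0.26, 95% interval -0.78 to 0.46, edgeR adjusted p = 0.897).

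Obox7, the least abundant of the 4, had 184, 220.1 and 119.7 CPM in OcKO and 159, 148.5 and 210.1 CPM in Control. Here OcKO replicate 1 lay among the Control libraries and only replicate 3 lay below them, and the groups overlapped. The log2 fold change was 0.02 (SE 0.27, 95% interval -0.60 to 0.64, edgeR adjusted p = 0.990).

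Oog1, the oogenesin of chromosome 12, had 234.5, 372 and 191 CPM in OcKO and 248, 261 and 294 CPM in Control. OcKO replicate 2 was again the highest of the 6 libraries and the other OcKO libraries the lowest. The log2 fold change was -0.01 (SE 0.26, 95% interval -0.62 to 0.60, edgeR adjusted p = 0.996).

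Oog3, the most abundant oogenesin, differed most among the OcKO libraries, with 1220, 3163 and 1158 CPM in OcKO against 1525, 2147 and 1590 CPM in Control. OcKO replicate 2 held 2.66 times the mean of the other OcKO libraries, which lay below all Control libraries. The log2 fold change was 0.07 (SE 0.40, 95% interval -0.86 to 1.01, edgeR adjusted p = 0.972), the widest interval of the 8 members.

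Oog4, which lies on chromosome 4 apart from Oog2 and Oog3, had 1167, 1404 and 820.0 CPM in OcKO and 1328, 1607 and 1413 CPM in Control. OcKO replicates 1 and 3 lay below all Control libraries and replicate 2 among them. Of the 8 members it had the most negative log2 fold change, -0.36 (SE 0.22, 95% interval -0.88 to 0.16, edgeR adjusted p = 0.642).

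Oog2 had 647, 731 and 400.2 CPM in OcKO and 461, 768 and 597 CPM in Control. Both groups were spread widely, and only OcKO replicate 3 lay outside the range of the Control libraries. The log2 fold change was -0.04 (SE 0.28, 95% interval -0.70 to 0.62, edgeR adjusted p = 0.982).

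**Figure D1:**
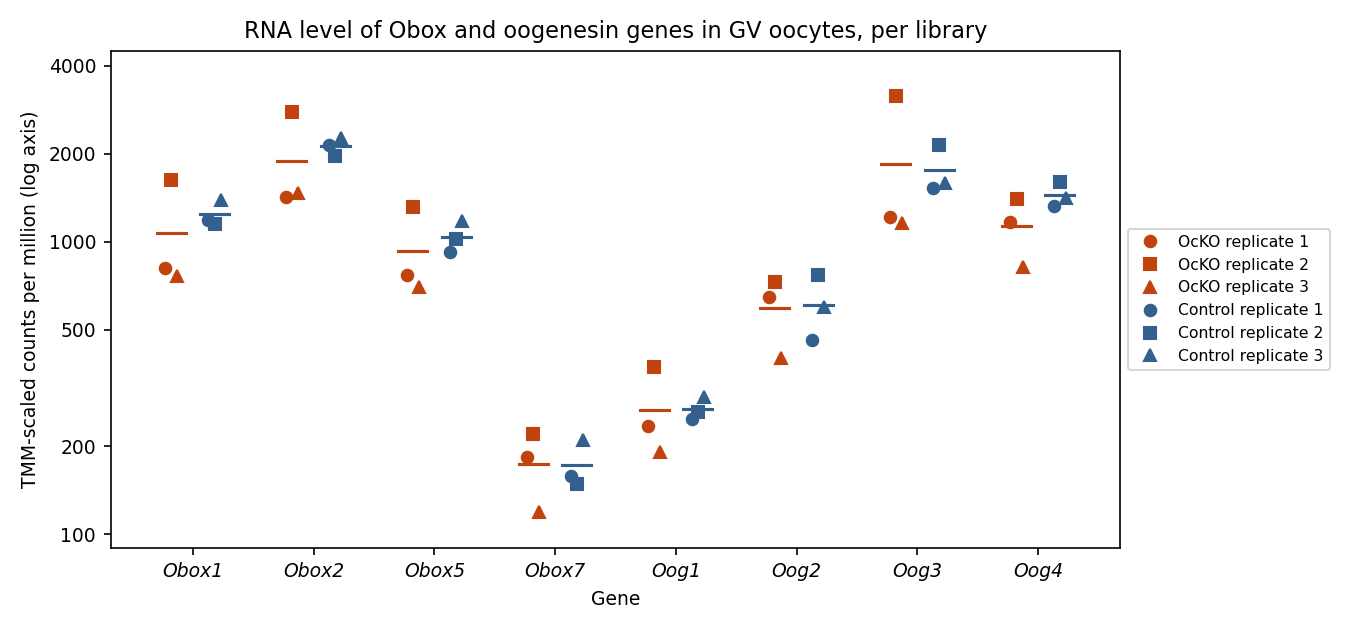
TMM-scaled CPM (log axis) of the 8 tested genes in each library, with OcKO in red to the left and Control in blue to the right of each gene, 1 symbol per replicate and a line at the group mean (n = 3). OcKO replicate 2 (red square) is the highest OcKO library for all 8 genes, from 220.1 CPM for Obox7 to 3163 CPM for Oog3.

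The plot of levels by library shows the pattern common to the members. OcKO replicate 2 was the highest of the 3 OcKO libraries for 8 of 8 members, which held for 34.6% of all tested genes, and the highest of all 6 libraries for 6 of 8, against 15.6% of all tested genes. OcKO replicates 1 and 3 both lay below every Control library for 6 of 8 members, all but Obox7 and Oog2, against 16.0% of all tested genes. Members with near-identical sequence share reads, so these counts are not of 8 independent genes. OcKO and Control did not separate for any of the 8, whereas the libraries of 19.4% of all tested genes did not overlap. Across members 6 log2 fold changes were negative and 2 positive, with a median of -0.10, which was -0.17 for the Obox and -0.02 for the oogenesin genes and 0.01 for all tested genes. DESeq2 and limma voom also called none of the 8, where they called 4.66% and 0.00623% of all tested genes.

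Without OcKO replicate 2 the median log2 fold change of the members was -0.49, while that of all tested genes was 0.01. All 8 values were then negative, the largest being that of Obox1 at -0.62 (edgeR adjusted p = 0.231) and that of Oog3 at -0.53 (edgeR adjusted p = 0.376). None was called after adjustment, where 0.0298% of all genes were. Since that library was the highest OcKO library for every member, leaving it out lowers each OcKO mean by construction. The values of Obox7, Oog1 and Oog2 were smaller, between -0.30 and -0.15. Leaving out OcKO replicate 1 instead gave a median of -0.04 for the members, and leaving out OcKO replicate 3 gave 0.09.

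**Figure D2:**
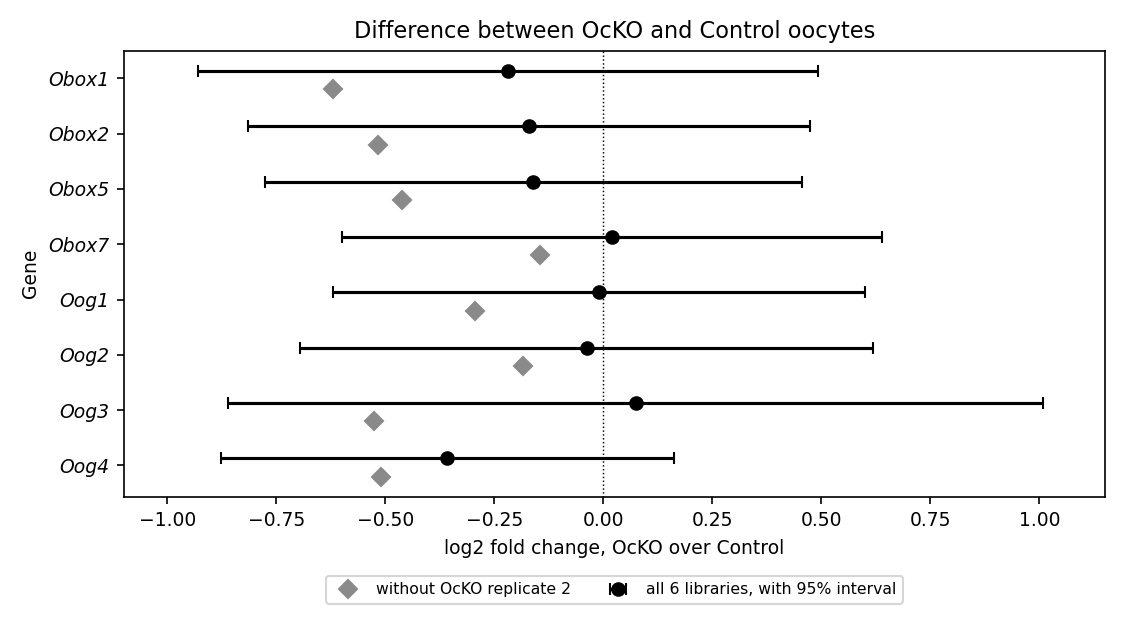
Log2 fold change, OcKO over Control, of the 8 tested genes: circles with 95% intervals are from all 6 libraries (3 against 3) and grey diamonds from the fit without OcKO replicate 2. All 8 intervals cover 0, and all 8 diamonds lie below 0, between -0.62 for Obox1 and -0.15 for Obox7.

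Since reads can be divided among copies by the counting, each family was also summed. A sum covers splits among the members of a family only. The 100-base windows that oogenesins share with other genes, given below, are shared with genes outside the sum. The Obox genes together had 3192, 5932 and 3054 CPM in OcKO, against 4416, 4284 and 5039 CPM in Control. This was 0.426% ± 0.155 of all counts in OcKO and 0.432% ± 0.0431 in Control (SD, n = 3). The oogenesins together had 3268, 5670 and 2569 CPM in OcKO, against 3562, 4784 and 3894 CPM in Control, or 0.402% ± 0.155 and 0.383% ± 0.0493 of counts (OcKO and Control, SD, n = 3). The summed levels thus kept the pattern of the single genes, with OcKO replicate 2 at the top and the means of the groups within 1 SD of the OcKO libraries of each other.

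Within the Obox family the proportions of the members hardly moved with the level of the family. Obox2 made up 44.6%, 46.7% and 48.0% of the family's counts in OcKO, against 48.7%, 45.8% and 44.8% in Control. Obox1 made up 26.0% ± 1.27 in OcKO and 27.1% ± 0.499 in Control, and Obox5 made up 23.1% ± 1.02 and 22.7% ± 1.60 (OcKO and Control, SD, n = 3). The ratio of Obox2 to Obox1 lay between 1.62 and 1.91 in all 6 libraries. Obox7 was the least even, with 5.77%, 3.71% and 3.92% in OcKO and 3.59%, 3.47% and 4.17% in Control.

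The oogenesins were less even. Oog3 made up 37.3%, 55.8% and 45.1% of its family's counts in OcKO, against 42.8%, 44.9% and 40.8% in Control, and Oog4 made up 35.7%, 24.8% and 31.9% in OcKO, against 37.3%, 33.6% and 36.3% in Control. The rise of the family in OcKO replicate 2 was thus mostly Oog3. The ratio of Oog2 to Oog4 was 0.554, 0.521 and 0.488 in OcKO and 0.347, 0.478 and 0.422 in Control, so that the groups did not overlap. An exact two-sided permutation test gave p = 0.1, the smallest that 3 against 3 libraries allow, and 0.4 after Benjamini-Hochberg adjustment over 6 ratios, which were chosen after the levels had been seen. For the 8 shares the adjusted p of the exact permutation tests was 0.914 or above.

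**Figure D3:**
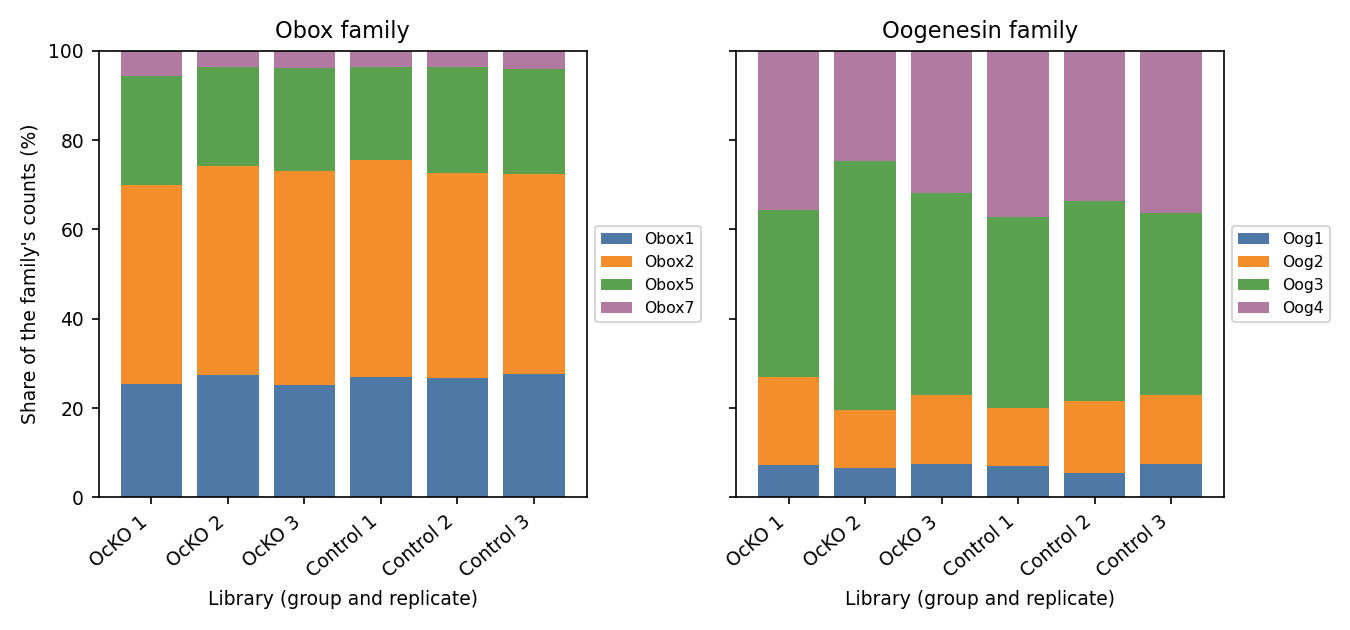
Share of the family's counts (%) taken by each member in each library, OcKO replicates 1 to 3 left of Control replicates 1 to 3, for the Obox family (left panel) and the oogenesins (right panel). The Obox shares stay close to each other over the libraries, with Obox2 at 44.6% to 48.7%, while Oog3 reaches 55.8% in OcKO replicate 2.

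How far the counts of single members can be told apart depends on their sequence. The labels state neither the read length nor how reads matching more than 1 gene were counted, so windows of 50, 75, 100 and 150 bases were taken along the transcripts of each member in GENCODE M21 and looked for in all other genes. Among the Obox genes, the longest transcripts of Obox1 and Obox2 were 99.2% identical where aligned, and 42.3% of the 100-base windows of Obox1 and 47.2% of those of Obox2 occurred in the other. Obox5 and Obox7 shared 1.8% and 2.3% of their 100-base windows with another gene, and Obox6 none. The levels of Obox1 and Obox2 are therefore uncertain as single genes, whereas those of Obox5 and Obox7 rest mostly on their own sequence at this length.

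Oog1 was the member with the least sequence of its own. Of its 100-base windows 78.0% occurred in other genes, and 77.3% in Gm2042 and 30.0% in Gm10436, which lie on the same chromosome. Oog2 shared 16.1% of such windows, all but a few with Gm13084, Oog3 shared 10.8% with Gm4350, and Oog4 shared none. Gm2042 was abundant too, with 435, 652 and 329 CPM in OcKO and 410.3, 424 and 500.1 CPM in Control. As for Oog1, OcKO replicate 2 was the highest library of Gm2042 and OcKO replicate 3 the lowest. OcKO replicate 1 lay among the Control libraries for Gm2042 and below them for Oog1. Gm2042 had a log2 fold change of 0.09 (edgeR adjusted p = 0.951). Gm10436 had 942, 1436 and 752 CPM in OcKO and 809, 936 and 1041 CPM in Control (edgeR adjusted p = 0.890). Gm13023, which holds 3.2% of the 100-base windows of Oog1, had 974, 1674 and 702 CPM in OcKO. In Control it had 791, 1314 and 1028 CPM (edgeR adjusted p = 0.957). Both were above Oog1 in every library and highest in OcKO replicate 2. Gm13084 had 2400, 2247 and 1461 CPM in OcKO and 2063, 1576 and 2797 CPM in Control, with the groups overlapping (log2 fold change -0.08, edgeR adjusted p = 0.957).

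**Figure D4:**
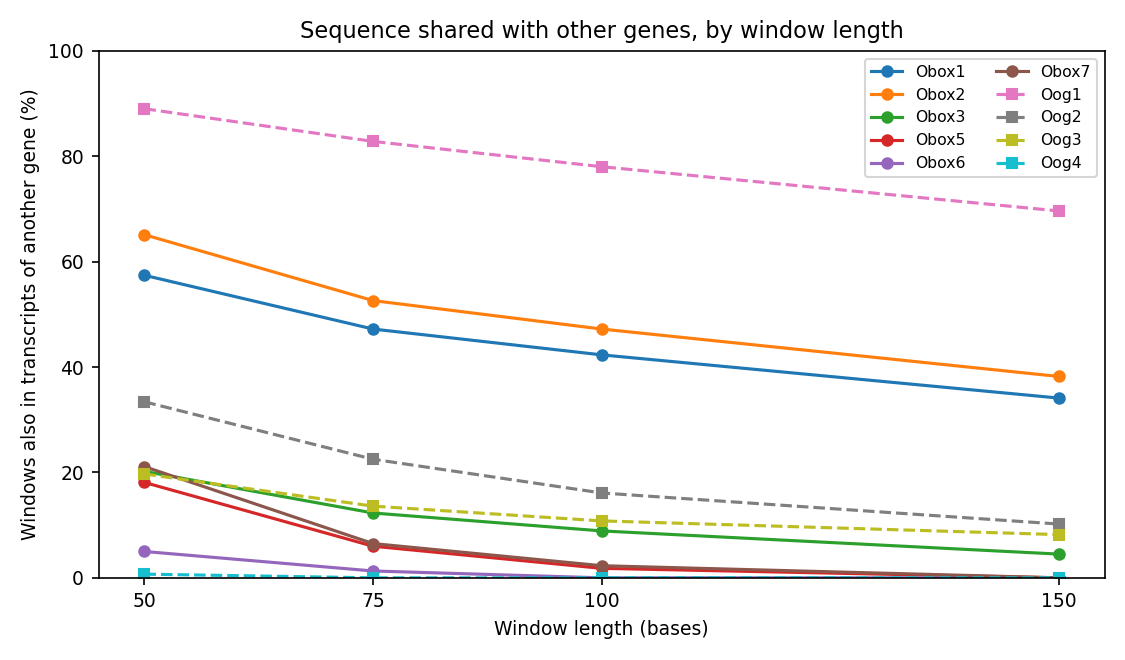
Percentage of windows along each member's transcripts that also occur in transcripts of another gene, against the window length of 50 to 150 bases; circles and solid lines are Obox genes, squares and dashed lines are oogenesins. At 100 bases Oog1 is highest with 78.0%, Obox2 and Obox1 follow with 47.2% and 42.3%, and Oog4 and Obox6 are at 0%.

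Obox3 and Obox6 were close to absent. Obox3, the copy known for expression in the embryo, had 0, 3 and 15 counts in OcKO and 0, 108 and 2 counts in Control. Its counts thus came mostly from Control replicate 2. Where Obox3 had 0 counts, the depth allows a level of up to 3 counts, or 0.0685 CPM in OcKO replicate 1 and 0.0827 CPM in Control replicate 1. Obox6 had 0, 0 and 49 counts in OcKO and 0, 72 and 0 counts in Control, so that 1 library of each group held all of them. Neither gene passed the filter on low counts, and no fold change is given.

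Other genes named Obox, with Crxos, formed a list of 50, of which 32 had a count and 4 passed the filter. None of the 4 was called and none had an unadjusted p under 0.05 (edgeR quasi-likelihood test; DESeq2 and limma voom also called none). Obox4-ps31, annotated as an Obox4 pseudogene, had 0, 46 and 305 counts in OcKO and 0, 0 and 20 counts in Control (edgeR adjusted p = 0.674). Obox3-ps8, an Obox3 pseudogene that shares a few 100-base windows with Obox3, had 1.12, 2.00 and 1.77 CPM in OcKO and 2.40, 2.58 and 2.88 CPM in Control (log2 fold change -0.68 with an SE of 0.76, edgeR adjusted p = 0.828). The OcKO libraries of Obox3-ps8 lay below all Control libraries, as did those of 8.67% of all tested genes.

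The Obox4 pseudogenes as a group were counted mostly in OcKO replicate 3. The 39 of them summed to 1, 124 and 1437 counts in OcKO replicates 1 to 3, against 1, 11 and 22 counts in Control replicates 1 to 3. In OcKO replicates 1 to 3, 1, 7 and 21 of the 39 had a count, against 1, 2 and 2 in Control. Of the 23 with any count, 15 had counts in OcKO replicate 3 alone, against 5.77% of all annotated pseudogenes with a count. The 8 Obox3 pseudogenes had 111, 201 and 397 counts in OcKO and 126, 224 and 167 counts in Control, again highest in OcKO replicate 3. How alike the Obox4 pseudogenes are in sequence was not computed here, and which copy a read was given to is uncertain.

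OcKO replicate 3 was also the highest library for genes known for a burst of transcription in the 2-cell embryo. Summed over 24 such genes the level was 193, 241 and 504 CPM in OcKO replicates 1 to 3, against 329.8, 329 and 299 CPM in Control replicates 1 to 3. By this sum OcKO replicates 1 and 2 lay below all Control libraries and replicate 3 above them. Sp110 alone held 117.7, 144.0 and 119.3 CPM of it in OcKO and 234.7, 221.6 and 191.7 CPM in Control. That 1 gene was most of the sum in every library but OcKO replicate 3, so the low sums of OcKO replicates 1 and 2 largely follow it. Of the 24 genes, 10, 21 and 23 had a count in OcKO, against 10, 11 and 9 in Control. The 5 Usp17l genes, which encode deubiquitinases, summed to 11, 415 and 8237 counts in OcKO and to 0 counts in each Control library. The 6 Zscan4 genes, which encode zinc finger proteins, summed to 223, 561 and 2934 counts in OcKO, against 408, 559 and 454 counts in Control. The 5 Tdpoz genes had 0, 113 and 395 counts in OcKO and none in Control. For these 3 gene groups the order over the OcKO libraries was that of the Obox4 pseudogenes and not that of the maternal Obox genes, which were highest in replicate 2. Whether a few oocytes of the pool or all of them carried these counts cannot be told apart here.

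**Figure D5:**
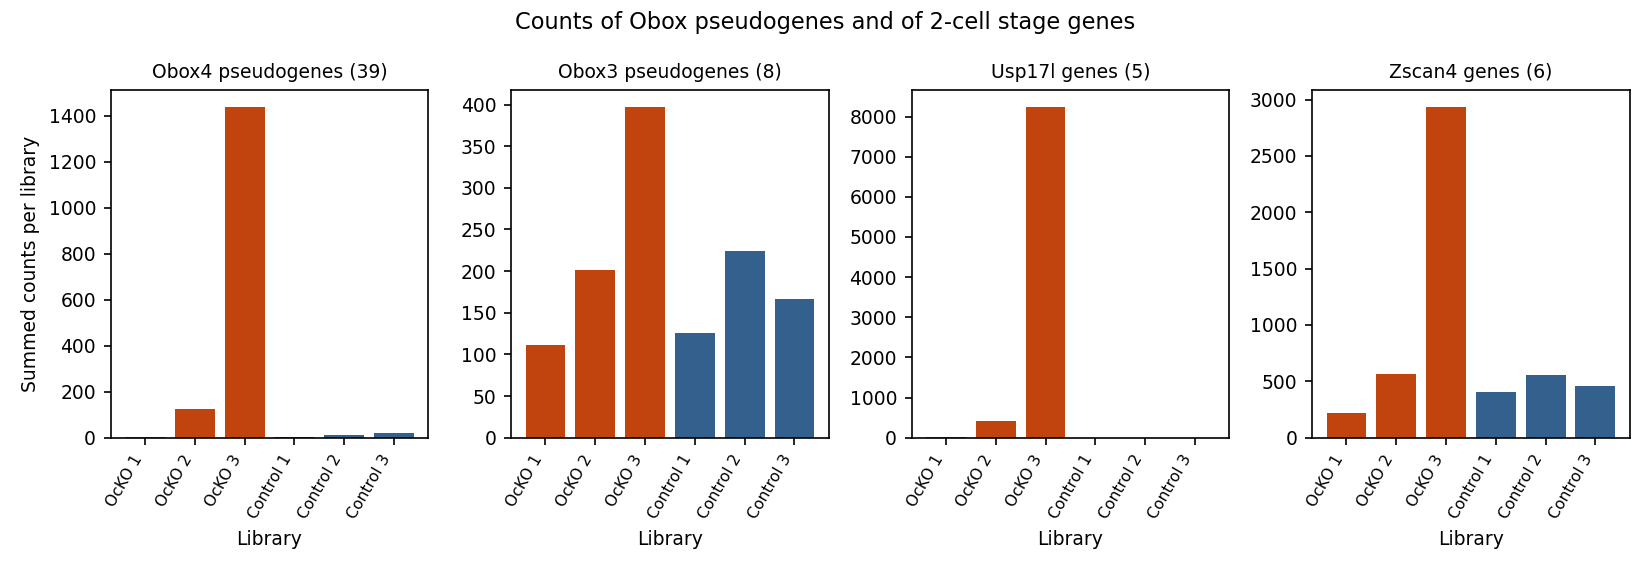
Summed counts per library of 39 Obox4 pseudogenes, 8 Obox3 pseudogenes, 5 Usp17l genes and 6 Zscan4 genes, OcKO in red left of Control in blue, each panel with its own linear axis from 0. OcKO replicate 3 is the highest library in all 4 panels, with 1437 counts of Obox4 pseudogenes and 8237 of Usp17l genes.

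Only 6 of the 2-cell stage genes passed the filter, and none was called by edgeR. At its unadjusted p under 0.05, 1 of them was lower, against 5.21% of all tested genes. This was Sp110, a nuclear body protein gene, with 118, 144 and 119 CPM in OcKO and 235, 222 and 192 CPM in Control. Its OcKO libraries lay below all Control libraries, as did those of 8.67% of all tested genes. Its log2 fold change was -0.77 with an SE of 0.18 (edgeR adjusted p = 0.141), while DESeq2 called it with an adjusted p of 0.00415. Tcstv1 averaged 56.6 ± 7.34 CPM in OcKO and 71.9 ± 7.96 CPM in Control (SD, n = 3), with an edgeR adjusted p of 0.645.

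The oogenesins' relatives with symbols Pramel or Pramef numbered 13, of which 5 passed the filter. Relatives under other symbols are outside this list, as are Gm2042 and Gm13084, which share sequence with Oog1 and Oog2. None of the 5 was called or had an unadjusted p under 0.05 (edgeR, where DESeq2 and limma voom also called none). Of their log2 fold changes 4 were positive. Pramef8 had 126.6, 158 and 222 CPM in OcKO and 110.3, 26.9 and 108 CPM in Control (log2 fold change 1.05 with an SE of 0.51, edgeR adjusted p = 0.516). Its OcKO libraries lay above all Control libraries, as did those of 10.7% of all tested genes. Pramef20 averaged 452 ± 84.8 CPM in OcKO and 352 ± 20.8 CPM in Control (SD, n = 3; edgeR adjusted p = 0.552). Pramef12, the most abundant of the 5 in CPM, had 864, 918 and 457 CPM in OcKO and 842, 1047 and 932 CPM in Control. Within OcKO, Pramef12 was highest in replicate 2, as the oogenesins were, and Pramef8 and Pramef20 were highest in other replicates.

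Of 14 genes listed as oocyte transcription factors, 12 were tested and none was called or had an unadjusted p under 0.05 (edgeR; DESeq2 and limma voom also called none). The list also holds Foxl2, a granulosa marker, and Ybx2, which acts on RNA. Tbpl2, the TBP paralog used in oocytes, averaged 31.6 ± 7.32 CPM in OcKO and 21.1 ± 2.88 CPM in Control (SD, n = 3; edgeR adjusted p = 0.563). Ybx2, which binds and stabilizes maternal RNA, averaged 26.1 ± 10.5 CPM in OcKO and 41.4 ± 16.3 CPM in Control (SD, n = 3; edgeR adjusted p = 0.636). The median log2 fold change of the tested genes of this list was 0.13.

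Beside the Obox genes, 20 other genes were listed as maternal factors of the start of embryonic transcription, and 19 of them were tested. The list is broad, and the part of each gene in that start was not tested here. None of the 19 was called by edgeR, and their median log2 fold change was -0.08. At edgeR's unadjusted p under 0.05, 1 was higher and 1 lower, against 5.93% and 5.21% of all tested genes. DESeq2 called 1 of the 19, against 4.66% of all tested genes. Dppa2, a chromatin factor known in mouse stem cells as an activator of 2-cell stage genes, had 181, 218 and 199.9 CPM in OcKO and 117, 93.5 and 111 CPM in Control. Its 3 OcKO libraries lay above all Control libraries, as did those of 10.7% of all tested genes. Its log2 fold change was 0.90 with an SE of 0.18 (edgeR adjusted p = 0.120), while DESeq2 called it with an adjusted p of 0.000185. Unlike the maternal Obox genes, Dppa2 was high in all 3 OcKO libraries. Rif1, known for the timing of replication, had 99.96, 93.1 and 65.8 CPM in OcKO and 118, 136.9 and 120.0 CPM in Control (log2 fold change -0.53, SE 0.22, edgeR adjusted p = 0.415).

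Around the members, 149 other genes start within 500 kb, and 46 of them were tested. None was called by edgeR or limma voom. DESeq2 called 2 of them higher, where it called 4.66% of all tested genes in either direction. By edgeR's unadjusted p under 0.05, 4 were higher and 1 was lower, against 5.93% and 5.21% of all tested genes. The 2 that DESeq2 called were BC080695 and Gm13128. Their symbols are outside the Pramel and Pramef list, and whether they belong to the PRAME family was not tested. BC080695, on chromosome 4 near Oog4, had 211, 91 and 241 counts in OcKO and 0 counts in each Control library (edgeR adjusted p = 0.120, DESeq2 adjusted p = 1.68e-06). Gm13128, on chromosome 4 near Oog2, had 407, 212 and 99 counts in OcKO and 14, 1 and 13 counts in Control (edgeR adjusted p = 0.216, DESeq2 adjusted p = 0.0040); it was added after its values were seen. Bbc3, on chromosome 7 beyond Obox6, encodes the pro-apoptotic protein PUMA and had 28, 17 and 18 counts in OcKO and 1, 2 and 0 counts in Control (edgeR adjusted p = 0.211, DESeq2 adjusted p = 0.441). In all 3 genes every OcKO library was above every Control library, which held for 10.7% of all tested genes. The 3 were named for a small p or a DESeq2 call, and they passed the filter on low counts through their OcKO counts. Their separation was therefore largely set by this choice and is no separate support.

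The genes whose levels over the 6 libraries were most like those of the families were drawn from 9282 genes that average 5 CPM or more. Closest to the mean log2 level of the tested Obox genes were Mindy3 (Pearson's r = 0.993), which encodes a deubiquitinase, Arfip1 (r = 0.992), which encodes an arfaptin, and Gtf2a1 (r = 0.989), which encodes subunits of the general transcription factor TFIIA. Closest to the oogenesins were Rbm39 (r = 0.988), a splicing factor gene, Usp15 (r = 0.987), a deubiquitinase gene, and Atp6v1c1 (r = 0.982), a gene of the vacuolar proton pump. Mindy3, for example, had 68.2, 139 and 48.1 CPM in OcKO and 89.1, 83.7 and 119 CPM in Control, so OcKO replicate 2 was highest and the other OcKO libraries were lowest, as for Obox1. These correlations are over 6 libraries that differ in depth and genotype, were the highest of 9282, and are given as a description.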

How the data were processed

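RNA-seq of 3 OcKO and 3 Control libraries was used. The authors deposited raw counts of reads per gene, 1 file a sample and 1 table, which differed in 0 values. Per the submitters' processing notes, Trimmomatic 0.36, STAR 2.5.2b and featureCounts of Subread 1.5.2 were used with GRCm38. No source used here gives the strand setting or the handling of reads shared between genes, so counts of near-identical copies and of overlapping genes can be split. Coordinates are those of the files.

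Counts were tested with edgeR 4.0.16 (glmQLFTest, TMM, filterByExpr, 16060 genes) in R 4.3.3, with Benjamini-Hochberg adjustment over all tested genes. The alternatives were DESeq2 1.42.0, limma 3.58.1 (voom), other scaling and filters, a replicate block and leaving out each library. After scaling, 1 count was worth 0.022 to 0.0288 CPM, and intervals over libraries do not cover the splitting of reads. Limits for 0 counts cover counting error only. No pair of libraries was a duplicate.

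Members and gene lists were chosen with earlier results of these data known. The genes named beside the members were the 2 with the smallest p in each list and the 3 most like each family. Unnamed models were left out of the latter. A small p goes with groups that do not overlap, so the separation given for such genes is no separate support. Pramef12 was added as the most abundant tested gene of its list. Gm13128, the genes sharing sequence with members, the Obox pseudogene groups and the 2-cell gene sums were chosen after their values were seen.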

Additional observations from a re-analysis of the deposited data

How the results depend on the processing

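The 8 members were tested under 13 other settings, which gave 104 values. None passed the threshold (lowest edgeR adjusted p = 0.231, that of Obox1 without OcKO replicate 2), and 84 kept their direction while 20 changed it. Oog1, at -0.01 on the log2 scale, was at 0.003 with DESeq2 size factors and with DESeq2, 0.148 with library size alone and 0.018 among genes averaging 5 CPM or more. Oog2 was at 0.124 with library size alone, and Oog3 at -0.067 with limma voom. Library size alone put the median of all tested genes at 0.18, against 0.06 for the members. Leaving out single libraries moved the log2 fold change between -0.461 and 0.005 for Obox5, -0.15 and 0.23 for Obox7, -0.30 and 0.18 for Oog1, -0.21 and 0.19 for Oog2 and -0.53 and 0.32 for Oog3. It moved the median of the members between -0.485 and 0.091.

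Over all genes, 22 higher and 1 lower were called. There were 64 and 8 among genes averaging 5 CPM or more, 477 and 272 with DESeq2, 0 higher with limma voom, and 0 to 4 higher and 0 to 2 lower without single libraries; the cause was not tested. The replicate numbers did not pair the samples (correlations of -0.05, -0.03 and -0.07). The replicate block called 0 higher and 0 lower and put Oog3 at -0.076 and Obox7 at -0.005. Differences inside the intervals given for the members could not be resolved with 3 libraries a group.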
